A study of Mus musculus with 4 samples.

Results

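The receptors through which granulocyte-macrophage colony-stimulating factor (GM-CSF), interleukin 3, granulocyte colony-stimulating factor (G-CSF), interleukin 6 and erythropoietin act on blood cells were examined in mouse LSK cells. LSK cells are bone marrow cells without lineage antigens and with cKit and Sca1, and they hold the hematopoietic stem cells and the multipotent progenitors. The group has 8 genes, Csf2ra, Csf2rb, Csf2rb2, Csf3r, Il3ra, Il6ra, Il6st and Epor, chosen by name from the annotation of the array, out of 18193 genes with a probe set of their own. They are read by 15 of the 45101 probe sets, of which 1 is shared by Csf2rb and Csf2rb2. Each gene is represented by its brightest probe set over the 4 arrays. The Ncstn KO mice were Ncstn flox/flox Mx1-cre+ and the WT mice were Ncstn flox/flox littermates, so WT here means floxed alleles without cre, and the loss of Ncstn and the cre transgene cannot be told apart. Nicastrin, the product of Ncstn, is part of gamma-secretase, the protease that cleaves Notch receptors. The Mx1 promoter that drives cre responds to interferon, which polyIC induces, and is not limited to blood cells. Mice of both genotypes were injected 3 times with 20 µg polyIC per g body weight, starting at 14 days of age, and were studied 4 weeks later at 6 weeks of age. Each genotype had 2 arrays from separate mice, 1 female and 1 male.

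Receptors of this group have no kinase of their own and work through Jak kinases bound to their cytoplasmic tails, which phosphorylate STAT factors. Some pair a ligand-binding alpha chain with a shared signalling chain. Csf2ra and Il3ra bind GM-CSF and interleukin 3, and both signal through the common beta chain Csf2rb, while the mouse has a second beta chain, Csf2rb2, that serves interleukin 3 alone. Il6ra binds interleukin 6 and signals through Il6st (gp130). Csf3r and Epor pair with a copy of themselves and serve neutrophil and red cell production.

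Csf2rb2 was the receptor gene furthest above WT in Ncstn KO cells, by 2.43-fold, followed by Il3ra at 1.52-fold, Epor at 1.48-fold and Csf2rb at 1.40-fold. In all 4 the arrays of the genotypes did not overlap. Csf3r and Il6st lay below WT on both arrays, and Csf2ra and Il6ra overlapped. None of the 8 genes passed limma's test at an adjusted p under 0.05, nor did any of the 18193 genes (0% called). A difference of at least 2-fold without overlap was found for 1 of the 8 above WT (Csf2rb2), against 1.19% of all genes, and for 0 of the 8 below WT, against 0.517%. At an unadjusted p under 0.05, 3 of the 8 were above WT (Csf2rb2, Csf2rb and Il3ra) against 4.96% of all genes, and 0 of the 8 were below WT against 1.84% of all genes. Groups that did not overlap were found for 4 of the 8 on the higher side, against 21.3% of all genes, and for 2 of the 8 on the lower side, against 12.8%. The 8 genes, and the pathway and marker lists below, were chosen with earlier results of these data known. Counts above the shares of all genes are therefore descriptions and not tests. The median change of the 8 was 0.48 on the log2 scale against 0.025 over all genes, and it was 0.26 without WT replicate 1. Changes below are Ncstn KO minus WT on the log2 scale, with SE for the fit's standard error and n = 2 per genotype, and intensities are on the linear scale. Probe sets differ in brightness for reasons of their sequence, so levels are compared between arrays and not between genes.

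**Figure D1:**
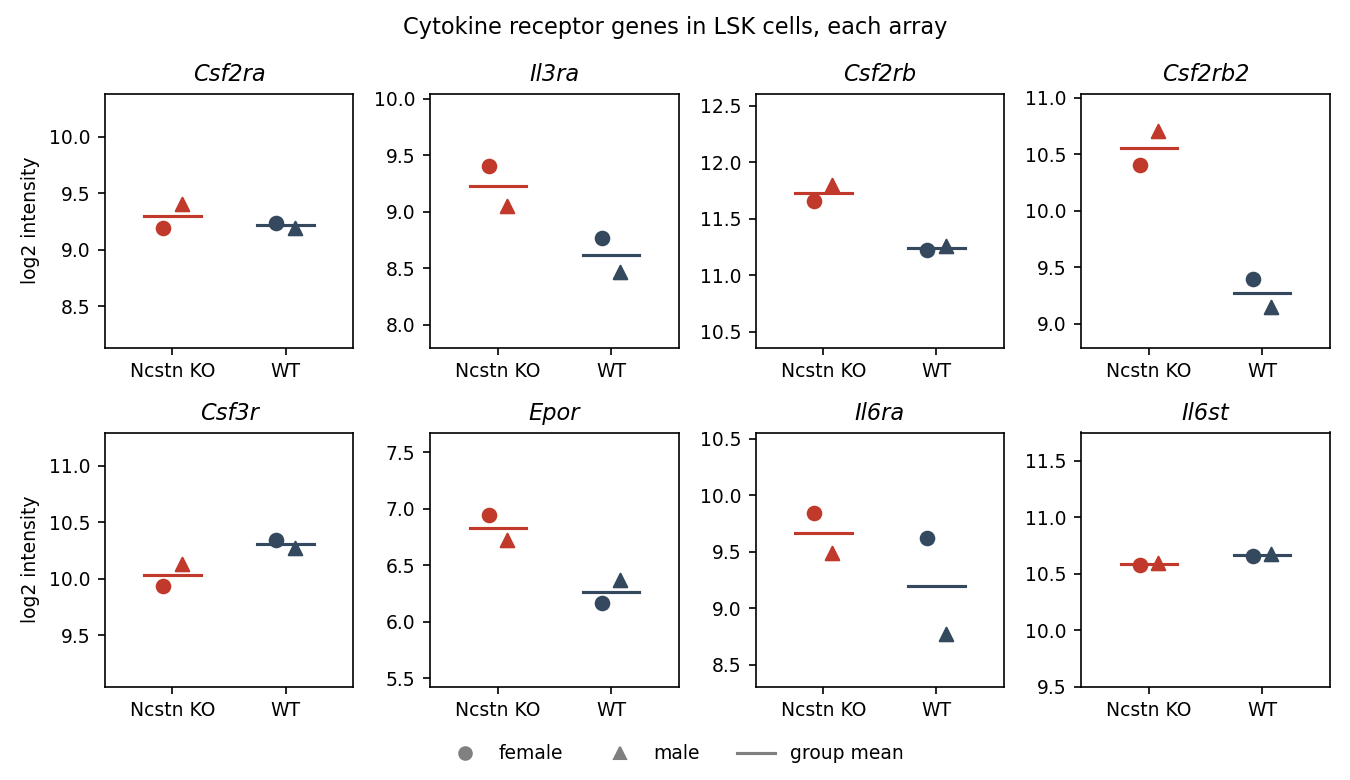
Log2 intensity of the 8 receptor genes on each array (y axis, the same span in every panel) for Ncstn KO and WT mice (x axis); circles are females, triangles are males and lines are group means. Both Ncstn KO points lie above both WT points for Il3ra, Csf2rb, Csf2rb2 and Epor, and below them for Csf3r and Il6st.

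The arrays were alike as a whole, with median intensities of 71.6 to 79.2 and Pearson's r between arrays, across genes, of 0.990 to 0.995. The Ncstn KO arrays correlated least with each other (0.9895) and the WT arrays most (0.9951). The log2 difference of the 3′ over the 5′ probe set of actin, a sign of RNA quality, was 1.02 and 0.94 on the Ncstn KO arrays and 0.89 and 0.79 on the WT arrays, without overlap, and its part in the results was not tested. That of Gapdh overlapped, at 0.69 and 0.77 in Ncstn KO and 0.71 and 0.65 in WT. Ncstn had intensities of 191.1 and 240.0 on the Ncstn KO arrays and 530.2 and 505.2 on the WT arrays, a change of -1.27 (SE 0.22, adjusted p = 0.257), in the direction of the labels. With the mean of all its probe sets the change was -0.80 (adjusted p = 0.696, against a range of 0.0847 to 1 over the alternatives). Ly6a, the gene of Sca1, had no probe set naming it alone, so Sca1 was not measured. Kit, the gene of cKit, averaged 11.71 ± 0.02 in Ncstn KO and 11.76 ± 0.27 in WT (log2 intensity, SD, n = 2 each). Cd34, which is not part of the LSK definition above, averaged 12.77 ± 0.01 in Ncstn KO and 12.81 ± 0.01 in WT (log2 intensity, SD, n = 2 each). S100a9, a gene of mature neutrophils and monocytes, was also bright, at 13.86 ± 0.09 in Ncstn KO and 13.85 ± 0.05 in WT (log2, SD, n = 2 each). The hybridization controls, bacterial and phage transcripts added to each sample, were brighter in Ncstn KO by 0.20 (log2), in the direction of the genes that lay above WT. Scaling the arrays to them sets the median change over all genes at -0.17 and subtracts the same amount from every gene.

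The sequences at a listed start of each gene are shown for the 4 receptors with a promoter entry that lay furthest from WT without overlap, 3 above and 1 below. A promoter entry (build GRCm38.p6) was at hand for 7 of the 8 genes, all but Csf2rb. Each window runs from 250 bases before the start to 30 bases after it, 5′ to 3′ on the strand of the gene. The Csf3r and Il3ra windows lie inside the RefSeq spans of these genes, which begin at 126023441 and 14345912. Their starts are thus not the outermost starts of the genes, and sequence further upstream was not searched. Capitals mark matches, on either strand, to AGGAAG (a core bound by PU.1 and other ETS factors), AGATAA (bound by GATA factors) and TTCNNNGAA (bound by STAT factors).
Csf2rb2, chr15:78305692-78305971, strand -: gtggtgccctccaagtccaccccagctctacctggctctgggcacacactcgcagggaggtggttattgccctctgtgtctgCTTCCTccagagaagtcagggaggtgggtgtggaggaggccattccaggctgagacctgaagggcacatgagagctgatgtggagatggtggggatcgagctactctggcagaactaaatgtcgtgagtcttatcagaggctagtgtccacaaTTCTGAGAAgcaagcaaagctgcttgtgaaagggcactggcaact
Il3ra, chr14:14346245-14346524, strand +: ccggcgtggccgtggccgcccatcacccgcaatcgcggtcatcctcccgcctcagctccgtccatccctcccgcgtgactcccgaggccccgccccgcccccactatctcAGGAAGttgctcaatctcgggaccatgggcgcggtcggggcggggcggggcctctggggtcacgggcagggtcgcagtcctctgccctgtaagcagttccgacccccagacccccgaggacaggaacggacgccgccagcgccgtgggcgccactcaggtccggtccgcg
Epor, chr9:21963547-21963826, strand -: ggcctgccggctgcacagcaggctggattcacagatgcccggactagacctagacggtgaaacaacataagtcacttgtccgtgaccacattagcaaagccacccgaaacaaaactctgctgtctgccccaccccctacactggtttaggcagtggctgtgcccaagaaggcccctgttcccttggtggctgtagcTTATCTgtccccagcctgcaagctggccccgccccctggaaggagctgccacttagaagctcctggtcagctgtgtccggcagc
Csf3r, chr4:126024409-126024688, strand +: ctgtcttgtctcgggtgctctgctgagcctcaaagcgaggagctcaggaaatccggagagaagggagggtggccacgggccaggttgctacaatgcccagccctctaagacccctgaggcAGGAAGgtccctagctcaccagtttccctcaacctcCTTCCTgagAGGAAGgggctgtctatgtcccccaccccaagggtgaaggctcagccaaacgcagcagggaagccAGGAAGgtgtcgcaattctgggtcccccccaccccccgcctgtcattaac
AGGAAG or its complement stands 4 times in the Csf3r window, 1 time in that of Csf2rb2 and of Il3ra, and not in that of Epor. It stands in 5 of the 7 receptors with a promoter entry and in 32.9% of 32851 windows of the same length. AGATAA stands in 2 of the 7, Epor and Il6ra, and in 10.7% of windows, and the Epor match begins 54 bases before the start. TTCNNNGAA stands in 1 of the 7, Csf2rb2, 15 bases before the start, and in 7.83% of windows. TTNNGNAA, a core of the sites bound by C/EBP factors, stands in 4 of the 7 and in 39.3% of windows. These motifs were picked after the sequences had been read, and a match describes the letters and not a bound site.

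Csf2rb2, the beta chain that serves interleukin 3, had intensities of 1351 and 1670 on Ncstn KO arrays 1 and 2 and 567.2 and 673.2 on WT arrays 1 and 2. The lower Ncstn KO array thus stood well above the higher WT array. The log2 mean was 10.55 ± 0.22 in Ncstn KO and 9.27 ± 0.17 in WT (SD, n = 2 each), a change of 1.28 (SE 0.18, adjusted p = 0.196, 95% interval 0.84 to 1.72). The 2 females differed by 1.005 and the 2 males by 1.56. Csf2rb2 ranked 33 of the 18193 genes by p, and it passed in 1 of 15 alternative analyses, with each array centred on its median (adjusted p = 0.0328; range over the alternatives 0.0328 to 0.808).

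Csf2rb, the common beta chain of the GM-CSF, interleukin 3 and interleukin 5 receptors, had intensities of 3220 and 3571 on the Ncstn KO arrays and 2448 and 2387 on the WT arrays. Again both Ncstn KO arrays stood above both WT arrays. The log2 mean was 11.73 ± 0.11 in Ncstn KO and 11.24 ± 0.03 in WT (SD, n = 2 each), a change of 0.49 (SE 0.10, adjusted p = 0.365) that was 0.29 with the arrays scaled to the hybridization controls. A second probe set of Csf2rb gave 2266 and 2195 in Ncstn KO and 1305 and 1477 in WT, a change of 0.68, also without overlap. The probe set that Csf2rb and Csf2rb2 share gave 330.0 and 353.7 in Ncstn KO and 191.5 and 206.5 in WT, a change of 0.78, between those of the single-gene probe sets. The 2 genes lie beside each other on chromosome 15 with 1 microRNA gene between them, and their sequences are close, so probe sets named for 1 of them may also take up transcripts of the other.

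The log2 difference of Csf2rb2 over Csf2rb within an array is free of any constant scaling of that array, though not of quantile normalization. It was -1.25 and -1.10 on the Ncstn KO arrays and -2.11 and -1.83 on the WT arrays, a shift of 0.79. Csf2rb over Csf2ra was 2.46 and 2.39 in Ncstn KO and 2.06 and 1.98 in WT, a shift of 0.40, and Csf2rb over Csf3r was 1.72 and 1.67 in Ncstn KO and 0.98 and 0.88 in WT, a shift of 0.76. The genotypes did not overlap in any of these 3 differences. For Csf2rb over Csf3r this had to be so, since these genes lay on opposite sides of WT without overlap. The differences reuse the values of single genes and are not separate support for them. Each of the 3 had a p of 0.333 in a two-sided exact permutation test. That is the smallest that 2 arrays per genotype allow (0.416 after Benjamini-Hochberg adjustment over the 5 pairs compared).

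**Figure D2:**
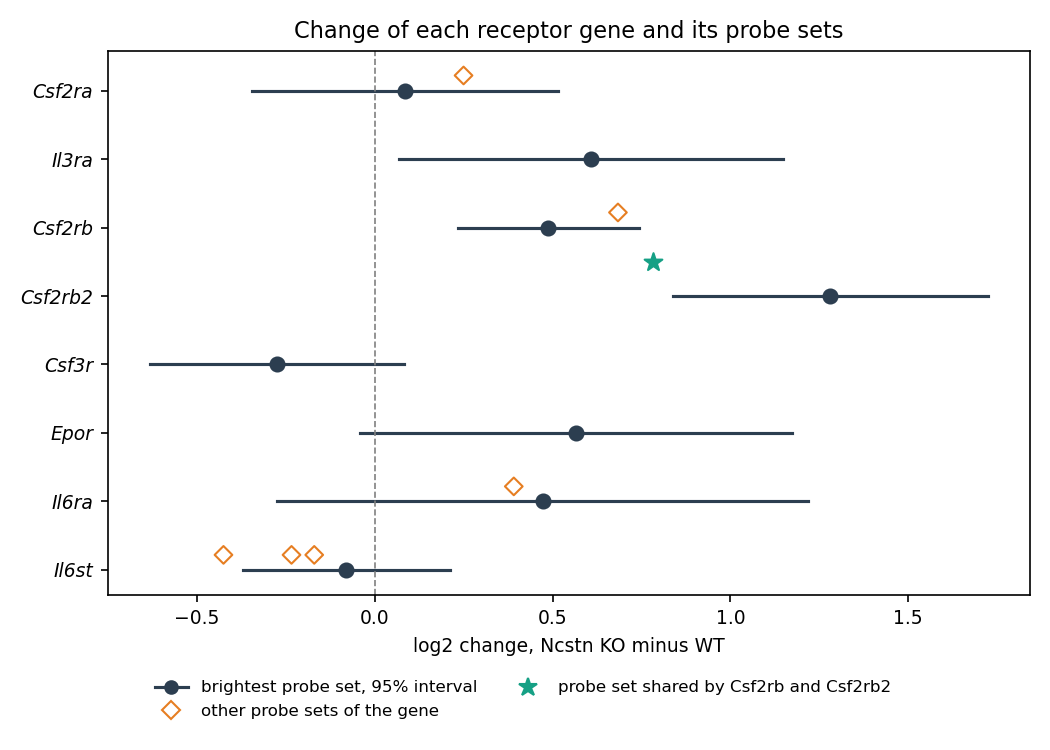
Log2 change, Ncstn KO minus WT (x axis), of each receptor gene (y axis); circles with bars are the brightest probe set with its 95% interval, diamonds other probe sets of the gene and the star the probe set shared by Csf2rb and Csf2rb2. The beta chain probe sets run from 0.49 to 1.28, and those of Il6st all lie below 0.

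Of the alpha chains, Il3ra lay above WT and Csf2ra overlapped with it. Il3ra, which binds interleukin 3, had intensities of 676.1 and 530.4 on the Ncstn KO arrays and 353.2 and 437.0 on the WT arrays, with no overlap. Its log2 mean was 9.23 ± 0.25 in Ncstn KO and 8.62 ± 0.22 in WT (SD, n = 2 each), a change of 0.61 (SE 0.22, adjusted p = 0.673). The females differed by 0.63 and the males by 0.59. Csf2ra, which binds GM-CSF, had intensities of 586.2 and 679.6 on the Ncstn KO arrays and 587.0 and 603.8 on the WT arrays. Ncstn KO array 1 was level with the WT arrays and array 2 above them. The change was 0.08 (SE 0.18, 95% interval -0.35 to 0.51, adjusted p = 0.991), and it was -0.02 without Ncstn KO replicate 2 and -0.11 with the arrays scaled to the hybridization controls. A dimmer Csf2ra probe set gave 149.1 and 277.4 in Ncstn KO and 153.5 and 190.7 in WT, a change of 0.25 with overlap. Il3ra over Csf2ra within an array was 0.21 and -0.36 in Ncstn KO and -0.73 and -0.47 in WT (exact p = 0.333, 0.416 adjusted over the 5 pairs).

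Of the receptors that pair with themselves, Csf3r lay below WT and Epor above it. Csf3r, the G-CSF receptor, had intensities of 976.2 and 1120 on the Ncstn KO arrays and 1238 and 1295 on the WT arrays, so both Ncstn KO arrays were below both WT arrays. Its log2 mean was 10.03 ± 0.14 in Ncstn KO and 10.31 ± 0.05 in WT (SD, n = 2 each), a change of -0.28 (SE 0.15, adjusted p = 0.842) that was -0.18 without Ncstn KO replicate 1 and -0.47 with the arrays scaled to the hybridization controls (unadjusted p = 0.0208, adjusted p = 0.275, against a range of 0.275 to 1 over the alternatives). Epor, the erythropoietin receptor, had intensities of 122.8 and 105.7 on the Ncstn KO arrays and 82.7 and 71.6 on the WT arrays. The log2 mean was 6.83 ± 0.15 in Ncstn KO and 6.27 ± 0.15 in WT (SD, n = 2 each), both under the median of all genes, 8.04. The change of 0.57 (SE 0.25, adjusted p = 0.776) thus rests on a dim signal, although the genotypes did not overlap. The females differed by 0.78 and the males by 0.35, and the change was 0.37 with the arrays scaled to the hybridization controls.

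Il6ra, the chain that binds interleukin 6, had intensities of 918.3 and 720.0 on the Ncstn KO arrays and 437.4 and 785.8 on the WT arrays. The WT arrays stood further apart than the genotypes, and the groups overlapped. The change of 0.47 (SE 0.31, adjusted p = 0.906) was 0.05 without WT replicate 1, 0.30 without Ncstn KO replicate 1, 0.89 without WT replicate 2 and 0.28 with the arrays scaled to the hybridization controls. A dimmer Il6ra probe set gave 101.9 and 66.5 in Ncstn KO and 56.0 and 70.4 in WT, also with overlap. Il6st (gp130), the signalling chain of the interleukin 6 family, had intensities of 1525 and 1547 on the Ncstn KO arrays and 1632 and 1616 on the WT arrays. Its arrays were the closest within each genotype of the 8 genes, and the groups did not overlap. The change was -0.08 (SE 0.12, 95% interval -0.37 to 0.21, adjusted p = 0.981), and -0.28 with the arrays scaled to the hybridization controls. The other 3 Il6st probe sets gave -0.43, -0.23 and -0.17, of which the last overlapped. Of these the first and second were dim, with intensities of 45.5 to 67.2, under the array medians of 71.6 to 79.2. The mean over all Il6st probe sets changed by -0.23. Il6ra over Il6st within an array overlapped between the genotypes (exact p = 0.667, also after adjustment over the 5 pairs).

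Across the 4 arrays, the genes whose centred log2 values were nearest to those of Csf2rb2 were F10, Socs3 and Bhlha15, with root mean square differences of 0.020, 0.046 and 0.061. They had changes of 1.30, 1.20 and 1.25. For Il3ra the nearest genes were Rab33a, Micall2 and Rnd3, at 0.021, 0.025 and 0.028, with changes of 0.63, 0.57 and 0.64. Of the 18192 other genes 10 lay within 0.1 of Csf2rb2 and 76 within 0.1 of Il3ra.

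Among other cytokine receptors of blood cells, Lifr, which joins Il6st to bind leukemia inhibitory factor, lay furthest from WT of the 24 measured. Its log2 intensity was 7.42 and 8.08 in Ncstn KO and 5.52 and 5.85 in WT, a change of 2.07 (SE 0.31, adjusted p = 0.212). The means, 7.75 in Ncstn KO and 5.69 in WT, were both under the median of all genes, 8.04, so Lifr was dim too. Csf1r, the receptor of macrophage colony-stimulating factor, had a change of 0.75 (SE 0.16), Ifngr1, the ligand-binding chain for interferon gamma, 0.45 (SE 0.13), and Il10ra, the interleukin 10 receptor, 1.26 (SE 0.40). The last was 0.79 without Ncstn KO replicate 2. In that list 19 of 24 were above WT, against 55.8% of all genes, with a median of 0.13, 6 of 24 were above WT at an unadjusted p under 0.05, against 4.96% of all genes, and 0 passed after adjustment. The median was -0.06 with the arrays scaled to the hybridization controls. Il5ra, the other alpha chain that uses Csf2rb, was dim and had a change of 0.04 (SE 0.21).

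Signalling genes downstream of the receptors had smaller median changes than the receptors. Of 19 measured kinases, STAT factors and adaptors 3 were above WT at an unadjusted p under 0.05, against 4.96% of all genes, 0 passed after adjustment and the median change was 0.10. The groups did not overlap for 10 of the 19 on the higher side, against 21.3% of all genes, and for 0 on the lower side, against 12.8%. The adaptor genes Irs2 and Gab2 had changes of 1.01 (SE 0.25) and 0.70 (SE 0.25, or 0.35 without Ncstn KO replicate 2), Stat3 had 0.31 (SE 0.12) and Pik3cd, a catalytic subunit of phosphoinositide 3-kinase, 0.30 (SE 0.13). Jak2, the kinase bound by Epor and the beta chains, had 0.05 (SE 0.10), and Stat5a -0.04 (SE 0.08). Of 21 measured inhibitors 1 was above WT at an unadjusted p under 0.05, a share near the 4.96% of all genes, and 0 passed, with a median of 0.07. That gene was Socs3, a feedback inhibitor that binds Il6st and Csf3r, with log2 intensities of 10.89 and 11.13 in Ncstn KO and 9.69 and 9.93 in WT, a change of 1.20 (SE 0.16, adjusted p = 0.192). The phosphatase genes Ptpn6 and Ptpn1 had 0.15 (SE 0.14) and 0.18 (SE 0.19), and Adam10, a protease that sheds membrane proteins, 0.10 (SE 0.10). The STAT5 targets Cish and Socs2 had 0.13 (SE 0.21) and 0.05 (SE 0.10).

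Of 20 measured target genes of STAT3 and STAT5, 6 were above WT at an unadjusted p under 0.05, against 4.96% of all genes, and 0 passed after adjustment, with a median of 0.14. Besides Socs3 they included the kinase gene Pim2 (1.19, SE 0.19), the transcription factor gene Cebpd (0.94, SE 0.20) and Bcl3, a regulator of NF-kappaB (0.42, SE 0.17). With the arrays scaled to the hybridization controls the medians were -0.09 for the kinases, STAT factors and adaptors, -0.13 for the inhibitors and -0.06 for the targets, against -0.17 for all genes. The 10 measured ligand genes were mostly dim, with a median of 0.04, 0 past adjustment, 1 above WT at an unadjusted p under 0.05, against 4.96% of all genes, and 1 below, against 1.84%. Il6 had log2 intensities of 3.38 and 3.01 in Ncstn KO and 4.14 and 4.35 in WT, a change of -1.05 (SE 0.20), and Il5 had 0.39 (SE 0.15), Clcf1 -0.51 (SE 0.35, or 0.0014 without Ncstn KO replicate 1) and Lif -0.33 (SE 0.27). The ligand median was -0.15 without Ncstn KO replicate 2, -0.0044 without Ncstn KO replicate 1 and -0.15 with the arrays scaled to the hybridization controls.

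**Figure D3:**
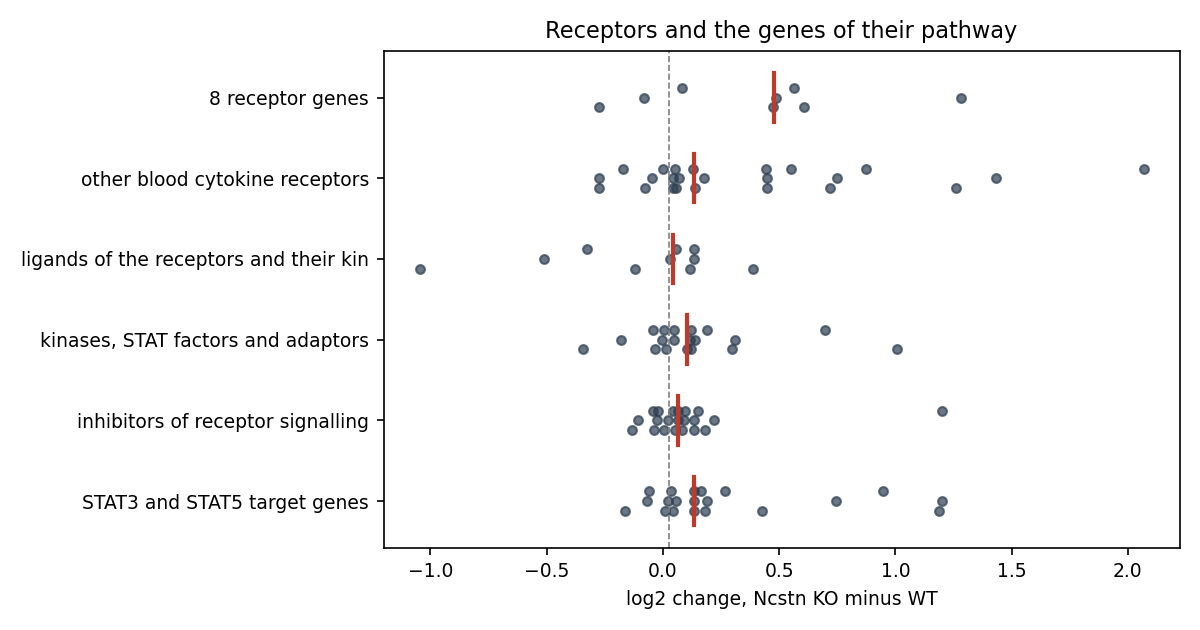
Log2 change, Ncstn KO minus WT (x axis), of every measured gene (points, spread vertically to separate them) in the receptor group and in the 5 lists of pathway genes (y axis), with the median of each list (red bar) and of all genes (dashed line). The receptor median is 0.48, and those of the other lists run from 0.04 to 0.14.

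Most measured markers of myeloid progenitors, basophils and mast cells, and neutrophils and monocytes lay above WT. Those of erythroid cells and megakaryocytes were mixed, with 11 of 14 above WT and 3 below it without overlap. Markers of lymphoid and stromal cells lay on both sides of WT. In each of these lists 0 markers passed after adjustment. The part of the markers in the receptor values was not tested. In sorted cells measured in bulk, more cells of a type and more RNA per cell cannot be told apart. Of all genes 55.8% were above WT. Of 9 granulocyte-macrophage progenitor markers 9 were above WT, with a median of 0.58 and summed intensities of 51112 to 51241 in Ncstn KO and 35144 to 35543 in WT. Ms4a3 (1.35, SE 0.10) and Elane (1.19, SE 0.11) had the smallest p. Of 7 markers of basophils and mast cells, which respond to interleukin 3, 7 were above WT, with a median of 1.10 and summed intensities of 11549 to 12573 in Ncstn KO and 7657 to 8109 in WT, with the smallest p for Mcpt8 (1.03, SE 0.12) and Cpa3 (1.10, SE 0.18).

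Of 14 markers of neutrophils and monocytes, 14 had a mean above WT, with a median of 0.82. The smallest p was that of F13a1 (1.64, SE 0.25) and Hp (1.19, SE 0.19). The groups did not overlap for 8 of the 14, all on the higher side, against 21.3% of all genes. They overlapped for S100a9 (0.01), Lyz2 (0.05), Ngp (0.10), S100a8 (0.11), Camp (0.19) and Ltf (0.36). The summed intensities of the 14 overlapped too, at 56474 to 70985 in Ncstn KO and 48963 to 59552 in WT. Of 14 erythroid and megakaryocyte markers 11 were above WT with a median of 0.41 and summed intensities of 7255 to 9893 in Ncstn KO and 5381 to 6317 in WT. The groups did not overlap for 6 of the 14 on the higher side, against 21.3% of all genes. They did not overlap either for the 3 below WT, Alas2, Trim10 (-1.10) and Slc4a1 (-1.05), against 12.8%. Overlap was found for Gata1 (0.27), Klf1 (0.16), Epb42 (0.03), Hba-a1 (0.03) and Gp1bb (0.56). At an unadjusted p under 0.05 in limma's test, 5 of the 14 were above WT, against 4.96% of all genes. A further 2 were below WT, against 1.84%. Itga2b, a platelet integrin gene, had 1.33 (SE 0.25) and Alas2, of heme synthesis in red cells, -1.30 (SE 0.36), which was -0.85 without Ncstn KO replicate 1. The 9 markers of B, T and NK cells had a median of 0.006 and summed intensities of 10688 to 13055 in Ncstn KO and 10987 to 11077 in WT, with Ms4a1 at -2.12 (SE 0.24) and Gzmb at 1.69 (SE 0.49), which was 0.93 without Ncstn KO replicate 1. The 7 stromal and endothelial markers had a median of 0.02 and summed intensities of 653.4 to 918.0 in Ncstn KO and 827.4 to 901.8 in WT, with Pecam1 at 0.48 (SE 0.20) and Cxcl12 at -2.17 (SE 0.93), which was -0.60 without Ncstn KO replicate 1. The 4 measured genes of the LSK marker list, Kit, Cd34, Slamf1 and Flt3, had a median of 0.05. Their summed intensities were 17844 to 18457 in Ncstn KO and 16469 to 17767 in WT. Slamf1 had 0.83 (SE 0.28, or 0.43 without WT replicate 2) and Flt3 0.13 (SE 0.11). Of these 4 only Kit is part of the LSK definition. No marker was listed at 0, since these array values have no true zero.

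**Figure D4:**
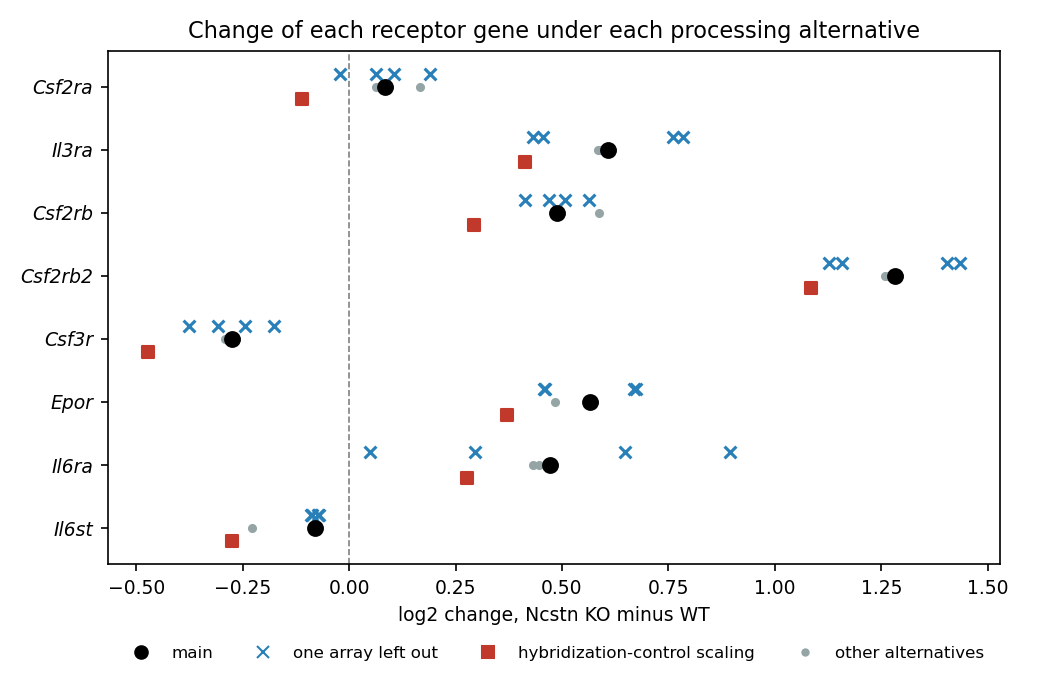
Log2 change, Ncstn KO minus WT (x axis), of each receptor gene (y axis) as reported (black circles), with 1 array left out (crosses), with the arrays scaled to the hybridization controls (squares) and under the other alternatives (grey points). Csf2rb2 stays between 1.09 and 1.43, whereas Il6ra runs from 0.05 to 0.89 and Csf2ra lies on both sides of 0.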

How the data were processed

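RNA from LSK cells of 4 mice was measured on arrays after amplification from 5 ng. The deposited values are intensities made with RMA, per the submitters' processing notes. They are on a linear scale, as judged from their range of 3.32 to 23643. The sources used here do not give the software. Log2 was taken with no further scaling. Of 45101 probe sets, 64 controls were left out; 34945 name 1 gene in the 2016 platform annotation, 932 several and 9160 none here. All 8 receptor genes matched RefSeq by Entrez identifier.

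Each gene was represented by its brightest probe set. Ncstn KO and WT were compared over 18193 genes with limma 3.58.1 in R 4.3.3 (lmFit, eBayes with variance trend, two-sided, Benjamini-Hochberg at 0.05). The test has 2 residual degrees of freedom and was checked on simulated data. In the simulation 200 of 18193 genes were changed, and the noise was independent between genes and arrays. There the test called 26.3% of the genes given a log2 change of 1 and 81% of those given 2. Effects shared across an array were not simulated, so these rates hold for that setting only. The small number of arrays limits precision.

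The 15 alternatives covered scaling, a pseudocount of 16, a filter on dim genes, probe set choice, the variance model, sex, the replicate number and leaving out each array.

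The receptor genes, 5 pathway lists and 7 marker lists were chosen with earlier results of these data known; 149 of 169 list genes are reported here. Named genes were the receptors and Ncstn, up to 4 per pathway list and 2 per marker list by smallest p, and for the 2 receptors of largest change the 3 genes nearest by root mean square difference. Kit, Cd34, S100a9, Il5ra, Jak2, Stat5a, Cish and Socs2 were added after their values were seen. Figures used matplotlib 3.10.9.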

Additional observations from a re-analysis of the deposited data

Results flagged for a closer look

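Each sex had 1 mouse of each genotype, so a difference between the sexes in the effect of genotype was not tested. Among the 55 named genes 8 had opposite signs between the females and between the males. Csf2ra had a change of -0.04 between the females and 0.21 between the males, the first minus the second being -0.25. For Ptpn6, a phosphatase gene, the females gave -0.10 and the males 0.40 (-0.50). For the cytokine receptor gene Flt3 they gave -0.04 and 0.30 (-0.35), and for Kit 0.13 and -0.22 (0.34). The STAT5 targets Cish and Socs2 gave 0.36 and -0.09 (0.45) and 0.21 and -0.11 (0.32). Stat5a gave 0.012 and -0.093 (0.10), and S100a9 -0.017 and 0.037 (-0.054).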

How the results depend on the processing

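Of the 8 receptor genes 7 kept their direction in every alternative that gave them a value; Epor was below the filter on dim genes and has none there. Csf2ra changed sign when scaled to the hybridization controls (-0.11) and without Ncstn KO replicate 2 (-0.022). The number of genes called was 3 after a second quantile normalization, 62 with arrays centred on their median, 2 without dim genes and 0 to 27 without 1 array, namely 23 without Ncstn KO replicate 1 and 27 without Ncstn KO replicate 2. Receptor genes called were 1 (Csf2rb2, change 1.29) with arrays centred on their median and 0 otherwise, while those at an unadjusted p under 0.05 numbered 2 to 4 over the alternatives. With 1 array left out, changes ran from -0.022 to 0.19 for Csf2ra, and medians from 0.26 to 0.53 for the receptors, 0.12 to 0.20 for other cytokine receptors, -0.15 to -0.0044 for ligands, 0.062 to 0.11 for kinases, STAT factors and adaptors, 0.0041 to 0.075 for inhibitors and 0.066 to 0.17 for STAT targets. Of the 55 named genes 42 kept their direction with each array left out in turn, and 13 did not in at least 1 case. Without dim genes the median of kinases, STAT factors and adaptors was 0.077. With the arrays scaled to the hybridization controls the medians were 0.28 for the receptors, -0.062 for other cytokine receptors, -0.15 for ligands, -0.091 for kinases, STAT factors and adaptors, -0.13 for inhibitors and -0.060 for STAT targets, and it left 21.4% of all genes above WT against 55.8% as deposited. The causes of these shifts were not tested, beyond the constant that a scaling adds.

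With the replicate number as a block 0 genes were called and the change of Csf2rb2 kept its size (1.28, adjusted p = 0.429). Same-numbered arrays deviated from their group means in opposite directions (r = -0.24 across genes). Same-numbered mice were of opposite sex, and for arrays of the same sex r was 0.24, the same value with its sign reversed. A difference between the sexes alone could give this sign, so the correlation cannot tell whether the numbers pair the mice. The crossed pairing, added after seeing the data, joins mice of the same sex, gives the same fit as sex as a second term and called 0 genes. Detection above background cannot be judged from these values, so the dim genes, Epor and the ligands among them, carry an unknown error.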
